A study of Homo sapiens with 16 samples.

Results

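Replication-dependent histone genes encode the linker histone H1 and the core histones H2A, H2B, H3 and H4 that package new DNA. Members were all genes whose current symbol in the platform annotation starts with H1-, H2AC, H2BC, H3C or H4C followed by a number, each taken from a probe set listed with that gene alone. Where a gene had several such probe sets, the one of highest mean signal was used. This gave 49 of the 19775 genes with a probe set, namely 10 H1, 9 H2A, 14 H2B, 7 H3 and 9 H4 genes. The choice used no difference between samples. The symbols also take in 3 pseudogenes (H1-9P, H2AC5P and H4C10P), H2BC12L, and genes that are not tied to DNA replication, such as H1-10 and the germ cell genes H1-6, H1-7, H1-8 and H2BC1. The antisense gene H1-10-AS1 was left out.

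The arrays cover 8 human B-cell lines that the series title calls mantle cell lymphoma lines. Each was exposed for 20 h to 5 uM AFN700, which inhibits the NF-kB pathway kinase IKKbeta, or to 0.025% DMSO, the solvent. One Affymetrix array was run per line and treatment, 16 in all, so the line is the replicate and a single line has no error of its own. By the labels, the 2 lines REC-1 and SP49 are sensitive to "stn" and to ibrutinib, an inhibitor of the kinase BTK. The 6 insensitive lines are JVM-2, JVM-13, Z-138, GRANTA-519, HBL-2 and Maver-1. Medium was DMEM for GRANTA-519 and RPMI for the rest, with fetal bovine serum in both. The treated JVM-13 array is titled AFN700 but its treatment field reads AFN701. It was kept as the treated array. Whether AFN700 cultures held the same share of DMSO is not given in the sources used here. Nothing says whether a culture was repeated.

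In dividing cells most of these genes are transcribed in S phase, when DNA is copied, and stay silent in resting cells. Their messages have no introns and end in a conserved stem-loop that the protein SLBP binds, in place of a poly(A) tail, and they are destroyed when DNA synthesis stops. Some of the genes also give spliced or polyadenylated messages, known mainly from resting and differentiated cells. Total RNA was amplified with a NuGEN Ovation kit. The labels do not say how it was primed, so stem-loop and polyadenylated histone RNA cannot be told apart, and the levels are those of whatever the kit copied. In these bulk samples, fewer cells in S phase and less histone RNA per cell cannot be told apart either.

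Values are the deposited linear MAS5 intensities, and differences are on the log2(intensity + 3.3) scale, which understates changes at low signal. A gene was tested if it lay above the 60th percentile of its array, an intensity of 21.5 to 31.7, on at least 2 arrays. That left 12305 genes, of which 21 were histone genes: 3 H1, 6 H2A, 8 H2B, 2 H3 and 2 H4. A histone gene could enter through a single line or treatment in which it was high. The other 28 were not tested, and 24 of them reached the filter value on none of the 16 arrays. Their intensities ran from 0.2 to 159.9, with a median over genes of 7.3. The highest belonged to H3C11, at 159.9 on the HBL-2 DMSO array, which was 1 of 4 genes above the filter on 1 array only. The linker histone gene H1-5 was another, at 54.0 on that array. H2AC16 and H2BC14 were the remaining ones, with highest intensities of 26.4 and 32.1. Of the 21 tested genes, 10 were read by probe sets whose suffix marks probes that can match other genes, and a further 20 probe sets shared by several histone genes were left out of the 49. Related copies can therefore add to a signal. Levels were compared between arrays within a probe set and never between genes.

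**Figure D1:**
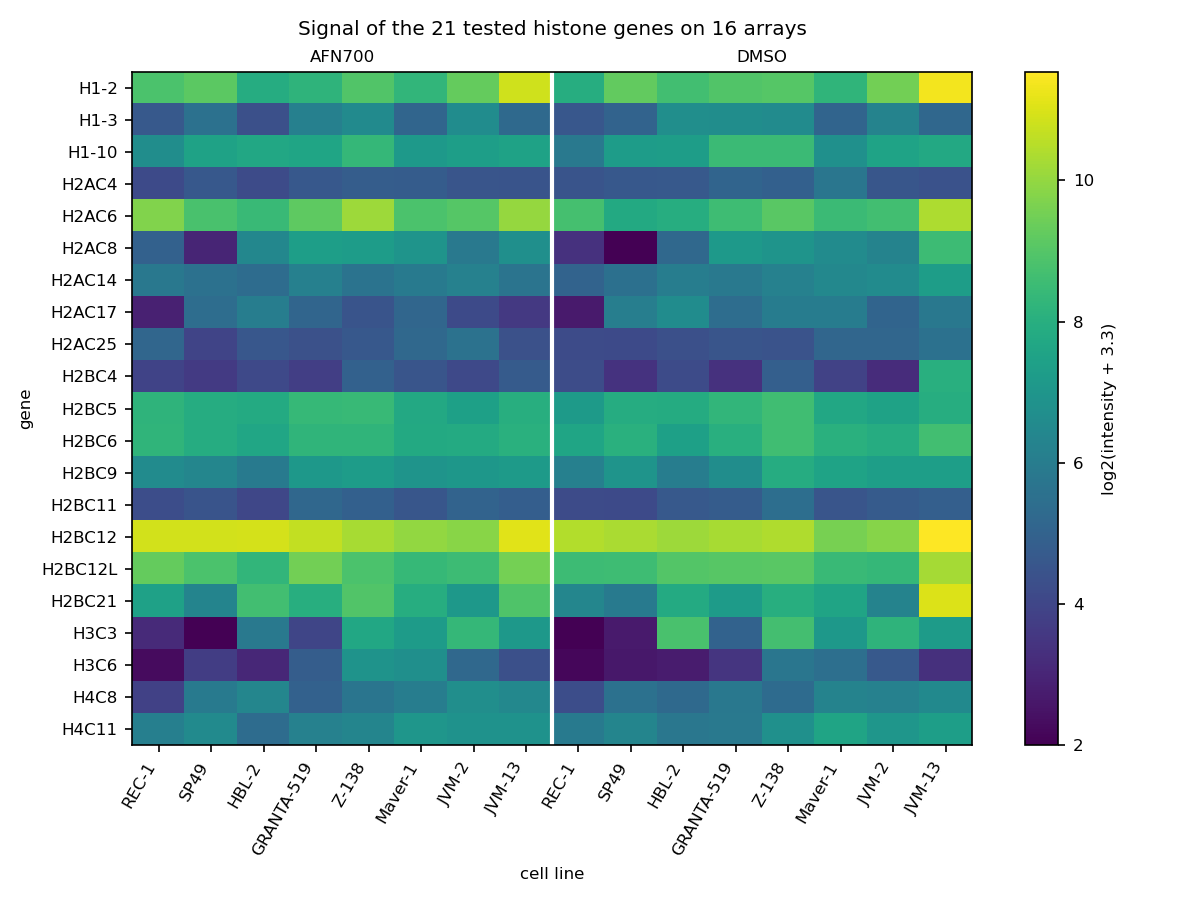
Signal of the 21 tested histone genes (rows) on the 16 arrays (columns, AFN700 left and DMSO right), as log2(intensity + 3.3). Colours are to be read along a row. H2BC21 stood at an intensity of 482.4 with AFN700 and 2072.6 with DMSO in JVM-13.

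Some features of the arrays bear on what follows. Over the genes tested, the median log2 level was 7.25 on the JVM-13 DMSO array and 7.82 to 8.02 on the other 15 arrays. The actin 3'/5' probe ratio, a sign of RNA integrity, was 16.68 with AFN700 and 1.9 with DMSO in HBL-2, and 18.83 with AFN700 and 10.33 with DMSO in Maver-1. It was 6.39 with AFN700 and 2.73 with DMSO in SP49, and the other 5 lines had 2.09 to 5.43 with AFN700 and 2.01 to 5.06 with DMSO. All 6 B-cell markers with a probe set lay above the filter value on at least 2 arrays, and their summed intensity was 6072 to 11824 with AFN700 and 5298 to 10922 with DMSO. The mantle cell lymphoma markers CCND1 and SOX11 were near 0 in JVM-13, at 2.3 and 0.3 with AFN700 and 4.8 and 1.4 with DMSO. In JVM-2, SOX11 was at 0.6 with AFN700 and 0.1 with DMSO. T cell markers summed to 34.4 to 392.9 with AFN700 and 23.2 to 303.8 with DMSO, with REC-1 highest (CD3D at 164.4 with AFN700 and 141.3 with DMSO). Myeloid markers, mainly LYZ, summed to 13.6 to 307.8 with AFN700 and 11.7 to 146.4 with DMSO. Fibroblast markers, mainly COL1A1, summed to 12.3 to 331.6 with AFN700 and 18.6 to 631.0 with DMSO, and epithelial markers to 20.5 to 496.7 with AFN700 and 24.0 to 413.7 with DMSO. Their part in the results was not tested.

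The first comparison asked how histone RNA differed with IKKbeta inhibition over all 8 lines. No histone gene passed an adjusted p of 0.05 in limma, nor did any of the 12305 genes (0.0%). At an unadjusted p under 0.05 there were 3 of 21 histone genes and 1006 of all genes (8.18%). H3C6 and H2AC6 were higher with AFN700 (all genes 6.43%) and H2AC17 was lower (all genes 1.75%). The mean difference was above 0 for 9 histone genes and below 0 for 12, while 62.9% of all genes tested were above 0. The median was -0.01 for the histone genes, against 0.06 over all genes tested. With quantile normalization or with arrays centred on their median the split was 6 above and 15 below, with medians of -0.13 and -0.11, against 0.0 and -0.04 over all genes.

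H3C6 encodes a core histone H3 and had the smallest p of the 21. Its intensity was 1.5 at the lowest, 20.8 at the median and 114.5 at the highest with AFN700, against 1.2, 7.25 and 50.8 with DMSO. The ranges overlapped because the lines differ widely, with Z-138 and Maver-1 high and REC-1 low under both treatments, but within every line the AFN700 array was the higher. The paired log2 difference was 0.85 ± 0.18 (SE, n = 8 lines; 1.8-fold), from 0.09 in REC-1 to 1.33 in GRANTA-519 (limma, unadjusted p = 0.000507, adjusted p = 0.458). It was the only histone gene higher in all 8 lines, as were 1.98% of all genes tested. The signal passed the filter value on only 5 of 16 arrays, and in REC-1, SP49 and HBL-2 it was 9.9 or less on both arrays. A second probe set for H3C6 read 0.4 to 9.0, below the filter value on all 16 arrays.

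H2AC6, a core H2A gene, was read at intensities well above the filter on all 16 arrays. It had 346.9 at the lowest, 547 at the median and 1136.0 at the highest with AFN700, against 215.7, 385 and 1319.0 with DMSO. JVM-13 held the highest DMSO value and was the only line with the lower value under AFN700 (1033.6, against 1319.0 with DMSO). The mean log2 difference was 0.57 ± 0.16 (SE, n = 8; 1.49-fold, higher in 7 of 8 lines), with an unadjusted p of 0.00346 and an adjusted p of 0.466 in limma. In REC-1, SP49 and Z-138 the difference was 0.98, 1.03 and 1.05.

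H2BC21, a core H2B gene of the histone cluster on chromosome 1, had 75.6, 247 and 486.6 (lowest, median, highest) with AFN700, against 56.7, 167 and 2072.6 with DMSO. The highest DMSO value was that of JVM-13, and the next was 246.5 in Z-138. In the other 7 lines the log2 difference lay between 0.38 and 1.07, all higher with AFN700, while in JVM-13 it was -2.10. The mean over 8 lines was 0.39 ± 0.30 (SE, limma adjusted p = 0.723). Without JVM-13 it was 0.75, with an adjusted p of 0.0600. H2AC6, H2BC21 and H3C6 were the 3 histone genes higher in 7 or 8 lines, against 9.86% of all genes. The same 3 were higher in all 7 lines other than JVM-13 (all genes 3.91%). That count, chosen after the data were seen, follows from the one before, since JVM-13 was the only lower line of H2AC6 and H2BC21.

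The lines that entered changed the call of 2 histone genes, H2AC6 and H2BC21. Both are read by probe sets whose suffix marks probes that can match other genes, so related copies can add to their signals. Without JVM-13 and HBL-2, the pairs with the lowest DMSO median and the largest change in actin ratio, H2AC6 (0.73, adjusted p = 0.0297) and H2BC21 (0.73, adjusted p = 0.0400) rose among 37 of the 12305 genes that passed (0.301%). Without JVM-13 alone, 10 genes passed (0.0813%) and no histone gene did, H2AC6 coming closest (0.70, adjusted p = 0.0514).

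H2AC17, another core H2A gene, went the other way. It had 4.0, 24.9 and 62.7 with AFN700, against 3.1, 56.5 and 96.5 with DMSO, and was lower with AFN700 in every line but REC-1. REC-1 was near 0 on both arrays, at 4.0 with AFN700 and 3.1 with DMSO. The log2 difference was -0.87 ± 0.24 (SE, n = 8; limma unadjusted p = 0.00300, adjusted p = 0.466), between -2.21 in JVM-13 and 0.19 in REC-1. H2AC4, a further H2A gene, had 14.2, 20.3 and 25 with AFN700 and 17.9, 22.0 and 50.9 with DMSO, and a difference of -0.30 ± 0.17. It was above the filter on 3 of 16 arrays. H2AC4 and H2AC17 were the 2 histone genes lower in 7 lines, against 4.11% of all genes for 7 or 8 lines.

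**Figure D2:**
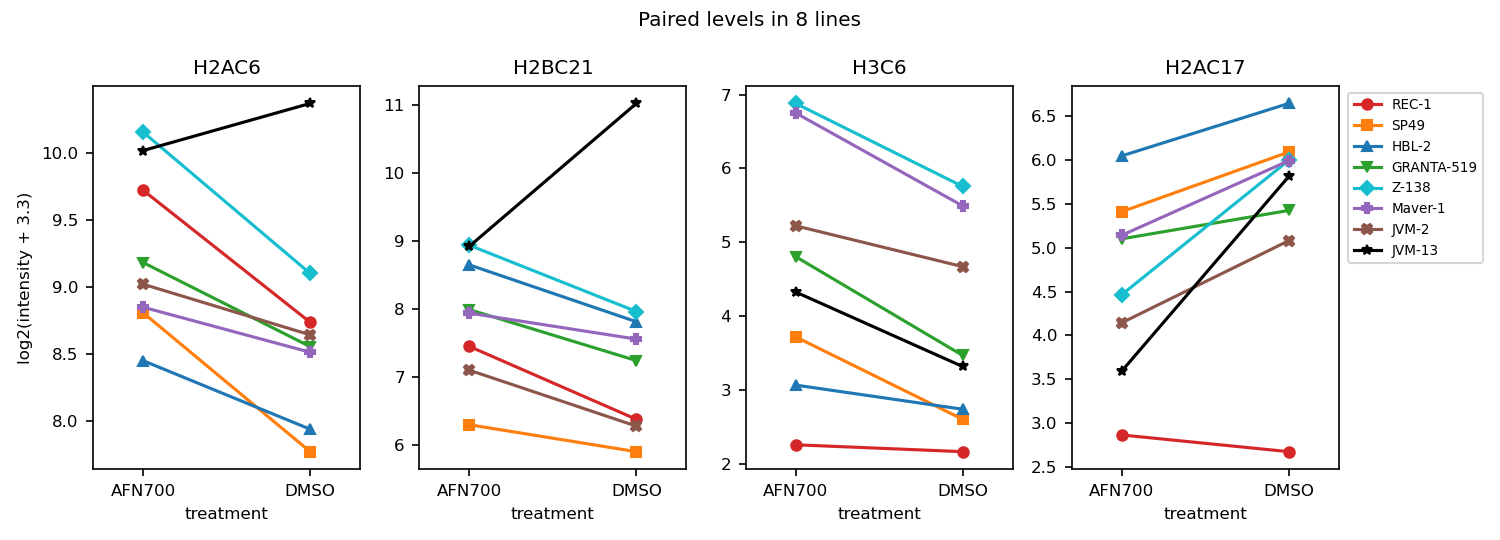
Intensity of H2AC6, H2BC21, H3C6 and H2AC17 as log2(intensity + 3.3), AFN700 left and DMSO right, 1 line joining the 2 arrays of each cell line. H2AC6 and H2BC21 were higher with AFN700 in every line but JVM-13, H3C6 in all 8, and H2AC17 was lower in every line but REC-1.

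The promoters of H2AC6, H2BC21 and H3C6 are shown since these were higher in 7 or 8 lines, and that of H2AC17 since it had the smallest p among the lower genes and is of the same family as H2AC6. They are RefSeq sequences of GRCh38.p14, written 5' to 3' on the gene's strand, from 250 bases before to 50 bases after the transcription start. Capitals mark 3 motifs on either strand, the octamer ATTTGCAT, CCAAT and TATAAA, none of which overlap in these windows. The octamer is the site known for the factor OCT1 in H2B promoters, CCAAT is bound by NF-Y, and TATAAA by the TATA-binding protein. H2AC6 lies at chr6:26123922-26124221 (plus strand), H2BC21 at chr1:149886633-149886932 (minus strand), H3C6 at chr6:26223928-26224227 (plus strand) and H2AC17 at chr6:27893136-27893435 (minus strand). For H3C6 RefSeq lists 2 starts, and the first is shown.
H2AC6: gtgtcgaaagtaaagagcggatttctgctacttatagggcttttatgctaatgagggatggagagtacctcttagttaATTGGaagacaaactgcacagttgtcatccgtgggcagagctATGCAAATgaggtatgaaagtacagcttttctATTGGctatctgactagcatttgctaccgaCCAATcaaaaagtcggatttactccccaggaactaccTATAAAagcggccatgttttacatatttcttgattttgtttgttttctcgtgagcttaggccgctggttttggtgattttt
H2BC21: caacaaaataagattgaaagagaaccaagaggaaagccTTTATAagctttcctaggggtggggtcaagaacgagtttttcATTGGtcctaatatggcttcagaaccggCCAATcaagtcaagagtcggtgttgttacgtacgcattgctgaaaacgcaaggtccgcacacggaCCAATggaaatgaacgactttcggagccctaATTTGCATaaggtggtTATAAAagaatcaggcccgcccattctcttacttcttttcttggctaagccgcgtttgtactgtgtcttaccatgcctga
H3C6: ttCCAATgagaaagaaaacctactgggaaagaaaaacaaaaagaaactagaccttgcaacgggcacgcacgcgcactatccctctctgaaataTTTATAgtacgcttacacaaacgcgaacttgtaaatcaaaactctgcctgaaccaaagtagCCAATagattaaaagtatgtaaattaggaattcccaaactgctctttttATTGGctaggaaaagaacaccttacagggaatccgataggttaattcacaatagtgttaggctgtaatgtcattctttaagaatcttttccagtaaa
H2AC17: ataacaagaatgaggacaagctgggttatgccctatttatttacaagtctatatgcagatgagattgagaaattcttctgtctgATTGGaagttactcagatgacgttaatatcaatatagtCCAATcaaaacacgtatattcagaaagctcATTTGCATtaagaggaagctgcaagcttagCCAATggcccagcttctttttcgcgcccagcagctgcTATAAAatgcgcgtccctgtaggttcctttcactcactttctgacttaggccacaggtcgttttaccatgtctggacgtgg

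H2AC6, which was higher with AFN700, and H2AC17, which was lower, both hold all 3 motifs. A promoter was listed for 43 of the 49 genes and for 20 of the 21 tested. The octamer was found in 16 of the 43 promoters (37.2%), in 6 of 8 H2A and 10 of 13 H2B promoters and in none of the 9 H1, 6 H3 and 7 H4 promoters. Over all 27305 listed promoters of the same length it was found in 1.8%. CCAAT was present in 37 of 43 (86.0%, all promoters 35.7%) and TATAAA in 28 of 43 (65.1%, all promoters 12.0%). These are matches of letters and not measured binding.

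Many of these genes sit head to head, an H2A gene and an H2B gene starting in opposite directions from a shared stretch. RefSeq lists 12 pairs of histone genes that diverge from starts within 500 bases of each other, and only 1, H2BC4 and H2AC6, had both genes tested. Their starts are 246 bases apart. H2BC4 had 9.1, 13.95 and 27.5 with AFN700, against 6.0, 13.2 and 255.9 with DMSO. Its DMSO value in JVM-13 was 255.9 and in the other 7 lines 26.4 or less, and its JVM-13 difference of -3.27 was far below that of H2AC6 (-0.35) in the same line. Over 8 lines H2BC4 differed by -0.17 ± 0.37 (SE).

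The other genes are given by family. Among the H1 genes, H1-2, a linker histone of most somatic cells, had 235.0, 468 and 1816.7 with AFN700, against 242.0, 505 and 2638.1 with DMSO. JVM-13 was the highest line under both treatments. The difference was -0.20 ± 0.17 (SE), higher in 2 of 8 lines, with REC-1 at 0.89. H1-10, whose expression does not follow replication, had 98.9, 176 and 326.3 with AFN700 and 54.0, 168 and 359.0 with DMSO, and differed by 0.05 ± 0.19. This sign turned under 5 of 18 alternatives, both scalings among them. H1-3 differed by -0.23 ± 0.28, and only in HBL-2 by more than 2-fold, at -2.38.

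Among the H2A genes, H2AC8 had 4.7, 93.3 and 159.5 with AFN700, against 0.8, 82.8 and 364.1 with DMSO, and a difference of 0.31 ± 0.31 that ran from 1.61 in REC-1 to -1.78 in JVM-13. H2AC14 and H2AC25 differed by -0.33 ± 0.23 and 0.06 ± 0.21. Their largest differences were again in JVM-13, at -1.63 and -1.20. Among the H2B genes, H2BC12 had 916.3, 1738 and 2184.3 with AFN700, against 756.6, 1271 and 2964.4 with DMSO. It differed by 0.25 ± 0.13 and was higher in 6 of 8 lines, the exceptions being Z-138 (-0.10) and JVM-13 (-0.44). H2BC12L had 304.6, 450 and 751.2 with AFN700, against 326.0, 444 and 1202.6 with DMSO, and a difference of -0.01 ± 0.17 whose sign turned under 5 of 18 alternatives, none of them a scaling. The remaining H2B genes, H2BC5, H2BC6, H2BC9 and H2BC11, had means between -0.19 and 0.10.

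Of the H3 genes, H3C3 had 0.8, 94.3 and 321.2 with AFN700, against 0.7, 141 and 443.5 with DMSO, and a difference of -0.54 ± 0.34. The lowest difference was -2.95 in HBL-2, with 54.6 under AFN700 and 443.5 under DMSO. The highest was 1.14 in REC-1, where both values, 5.5 with AFN700 and 0.7 with DMSO, were near 0. Without HBL-2 the mean was -0.20. H4C8 had 10.9, 60.4 and 101.8 with AFN700, against 15.7, 48.6 and 89.0 with DMSO, and differed by 0.10 ± 0.21. Its sign turned under both scalings, without HBL-2, and without JVM-13 and HBL-2. H4C11 had 37.8, 84.4 and 125.5 with AFN700, against 51.2, 91.9 and 186.7 with DMSO, and differed by -0.17 ± 0.16. Adjusted p was between 0.627 and 0.996 in limma for the 18 tested histone genes other than H3C6, H2AC6 and H2AC17, and no family had an adjusted call.

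**Figure D3:**
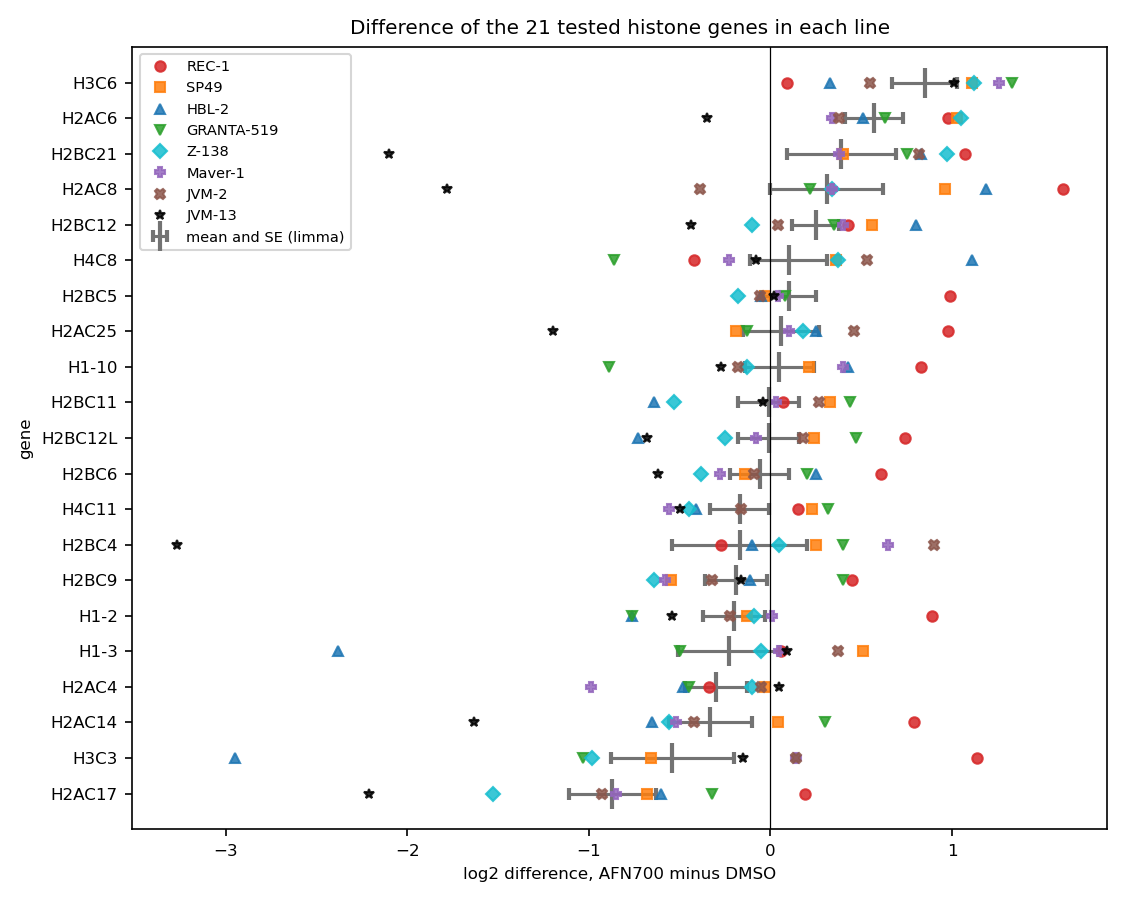
Log2 difference, AFN700 minus DMSO, of the 21 tested histone genes in each of 8 lines (symbols), with the limma mean and its SE (grey). The genes run from H3C6 (0.85) to H2AC17 (-0.87), and JVM-13 (black stars) holds the lowest value of H2BC21 (-2.10) and H2BC4 (-3.27).

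The lines differed in direction. In REC-1, 18 of 21 histone genes were higher with AFN700 and the median difference was 0.61, while 54.7% of all genes tested were higher with a median of 0.05. With quantile normalization 14 of 21 were higher in REC-1, with a median of 0.57. In SP49 13 of 21 were higher (median 0.23, all genes 55.4% higher), in GRANTA-519 13 (0.22, all genes 44.9%) and in Maver-1 13 (0.04, all genes 50.6%). The count was 11 in JVM-2 (0.04, all genes 51.1%), 9 in HBL-2 (-0.10, all genes 60.6%) and 7 in Z-138 (-0.10, all genes 54.5%). In JVM-13 only 4 of 21 were higher and the median was -0.44, although 61.0% of all genes were higher there with a median of 0.27. Centring on the array medians gave 1 of 21 higher in JVM-13 and a median of -1.11, with all genes at -0.39, and quantile normalization gave 1 of 21 and -0.78, with all genes at 0.02. At least 2-fold differences were counted for 6 histone genes downward (all genes 7.02%) and 1 upward, H3C6 (all genes 25.7%), in JVM-13. After centring these counts were 12 downward (all genes 25.1%) and 0 upward (all genes 11.6%). In REC-1, 3 were at least 2-fold higher (all genes 2.54%) and 0 at least 2-fold lower (all genes 1.02%). These are single pairs of arrays and carry no test.

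In JVM-13 the high histone values were on the DMSO array. Under DMSO, 11 of 21 histone genes had their highest value of the 8 lines in JVM-13 (all genes 17.2%), and under AFN700 3 did (all genes 12.9%). That array also had the low overall median given above, and its part in these differences was not tested.

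Genes of DNA synthesis were set beside the histone genes because histone messages normally follow S phase. None of 25 tested DNA replication genes passed the threshold in either direction (0 at an unadjusted p under 0.05), and the median over 8 lines was 0.0. Per line, their median difference was -0.88 for GRANTA-519, -0.24 for Z-138, -0.22 for REC-1, -0.17 for Maver-1, -0.02 for SP49, 0.02 for HBL-2, 0.02 for JVM-2 and 1.04 for JVM-13. As deposited, it had the sign of the histone median only in Z-138 and JVM-2. After centring it did so in HBL-2 too, at -0.19 for DNA replication genes and -0.31 for histone genes. Some of the medians as deposited were too close to 0 for their sign to carry weight. These were the DNA replication medians of SP49, HBL-2 and JVM-2, and the histone medians of Maver-1 and JVM-2 (0.04 each). In GRANTA-519, 24 of 25 DNA replication genes and 18 of 18 mitosis genes (median -0.84) were lower with AFN700, while 13 of 21 histone genes were higher. In JVM-13, 2 of the 25 were lower and 17 of 21 histone genes were lower. After centring, the JVM-13 medians were 0.38 for DNA replication genes and -1.11 for histone genes. PCNA, the sliding clamp of DNA polymerases, differed by -0.09 ± 0.08 over 8 lines.

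**Figure D4:**
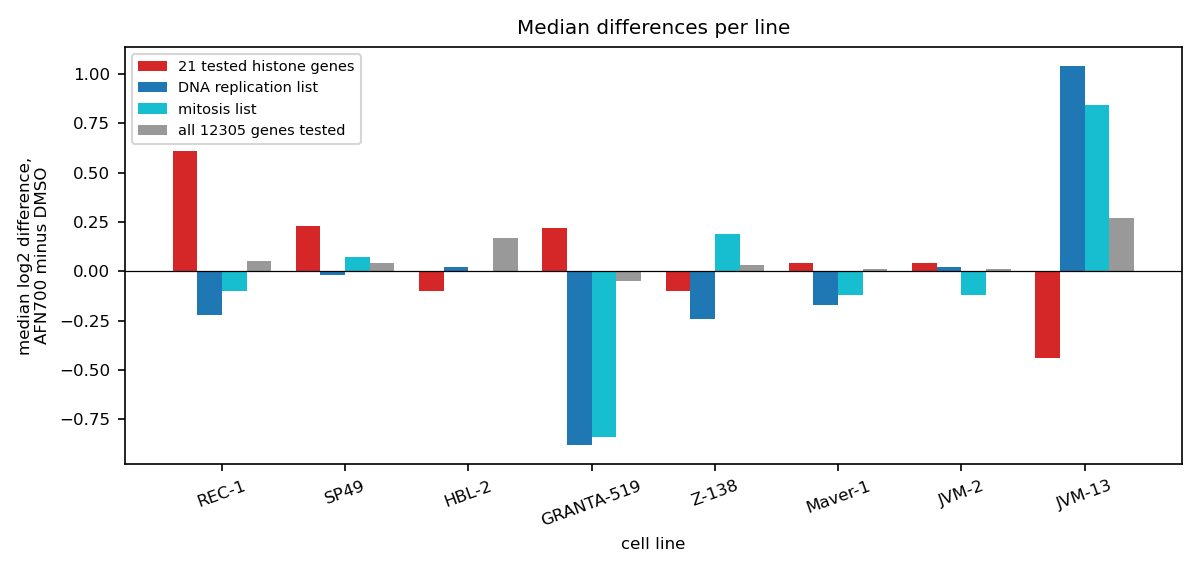
Median log2 difference, AFN700 minus DMSO, in each line for the 21 tested histone genes, the DNA replication list, the mitosis list and all genes tested, as deposited. In REC-1 and GRANTA-519 the histone median was above 0 (0.61 and 0.22) and the DNA replication median below 0 (-0.22 and -0.88), and in JVM-13 the signs were the other way round (-0.44 and 1.04).

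The second comparison asked whether the response differed between the sensitive and the insensitive lines. No histone gene and no gene at all passed (0.0%) in limma. At an unadjusted p under 0.05 there was 1 histone gene, H1-2, with the higher response in the sensitive lines, as had 1.09% of all genes (1.48% in either direction). For H1-2, the response was 0.38 ± 0.31 (SE) in the 2 sensitive lines and -0.39 ± 0.18 in the 6 insensitive lines, a difference of 0.77 ± 0.35 (limma, unadjusted p = 0.049, adjusted p = 1.0). These SE come from the spread of all 8 lines together. The 2 sensitive lines differed, with REC-1 at 0.89 and SP49 at -0.13, and without REC-1 the difference in response was 0.26. In 19 of 21 histone genes the response was the higher in the sensitive lines, with a median difference of 0.49, against 46.1% of all genes and a median of -0.03. Without REC-1 the median was 0.32 (18 of 21), without SP49 0.76 (17 of 21) and without JVM-13 0.43 (17 of 21). H3C6 and H4C8 were the 2 with the lower response in the sensitive lines, at -0.33 ± 0.44 and -0.17 ± 0.51. Both turned without REC-1, to 0.18 and 0.22. Of the 21 genes, 10 were read by probe sets that can match other genes, so the 21 are not separate readings. Without such probe sets the response was higher in 9 of 12 histone genes, with a median of 0.30, against -0.03 over all genes. The response includes the DMSO arrays, so it is not separate from the DMSO levels compared next.

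The third comparison took the levels under DMSO. Here 20 of 21 histone genes had the lower mean log2 level in the sensitive lines, with a median difference of -0.70, against 45.1% of all genes and a median of 0.07. Of the 21, 6 had passed the filter through insensitive lines alone (H2AC4, H2AC8, H2BC4, H2BC11, H3C3 and H3C6), so this count favours lower values in the sensitive lines. With no filter, 45 of all 49 histone genes were lower, with a median of -0.60, against 0.02 over all 19775 genes. Of these 49, 28 had not passed the filter, and their low intensities give imprecise differences. As in the second comparison, the 21 are not separate readings. Without probe sets that can match other genes, 10 of 12 histone genes were lower, with a median of -0.90, against 0.07 over all genes. Without JVM-13 the median of the 21 was -0.57 (20 of 21 lower), against 0.02 over all genes. Without REC-1 the median of the 21 was -0.45 (19 of 21 lower), and H2AC17 turned to 0.27. The exception with all 8 lines was H2BC12, at 0.10 ± 0.44 (SE), which turned to -0.06 with centred arrays and to -0.04 without Maver-1. No histone gene passed the adjusted threshold, and 1 of 12305 genes did (0.00813%). H3C3 and H2AC8 were lower in the sensitive lines at an unadjusted p under 0.05, as were 2.75% of all genes (5.7% in either direction).

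Under DMSO, H3C3 read 0.7 (REC-1) and 3.2 (SP49) in the sensitive lines, against 28.9 to 443.5 in the 6 insensitive lines. The sensitive lines lay below all the others, and their signals were below the filter value. With such low signals no exact fold can be given. The fitted log2 difference ran from -6.06 with a pseudocount of 1 to -3.49 with 16, and the limma adjusted p was 0.222, or 0.0721 without GRANTA-519, the lowest insensitive line. H2AC8 read 7.0 (REC-1) and 0.8 (SP49), against 34.5 to 364.1 in the insensitive lines, with a fitted difference of -4.82 to -2.67 over the same pseudocounts and a limma adjusted p of 0.284. Both genes kept the 2 sensitive lines below the 6 insensitive lines with AFN700, H3C3 at 5.5 and 0.8 against 12.5 to 321.2, and H2AC8 at 28.1 and 4.7 against 55.0 to 159.5.

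Both sensitive lines lay below all 6 insensitive lines under DMSO for 7 of 21 histone genes, H1-3, H2AC8, H2AC14, H2AC25, H2BC11, H3C3 and H3C6, against 3.49% of all genes tested. The reverse order held for 0 histone genes, against 5.68% of all genes. With AFN700 it was 2 of 21 that lay below, against 3.25%. Without JVM-13 the counts were 7 under DMSO and 2 with AFN700, of the same genes, against 5.61% and 3.97% of all genes. Of the 7, H2AC8, H2BC11, H3C3 and H3C6 had passed the filter through insensitive lines alone, which favours this order. With no filter, chosen after the data were seen, it was 8 of 49 histone genes under DMSO (all genes 3.49%), H2AC16 being added, and 5 of 49 with AFN700 (all genes 3.1%). For 5 of the 7 the sensitive lines came close to the lowest insensitive line, as for H2BC11, at 14.7 in REC-1 and 14.4 in SP49 against 19.6 to 40.1. For H2AC25 it was 14.8 and 14.3 against 17 to 43.9, and its second probe set read 20.2 in REC-1 and 1.0 in HBL-2, so it did not give that order. Nor did the second probe set of H3C6, at 3.0 in REC-1 and 3.9 in SP49 against 0.5 in HBL-2 and 0.4 in GRANTA-519. REC-1 and SP49 were the only sensitive lines, so sensitivity and other properties of these lines cannot be told apart.

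**Figure D5:**
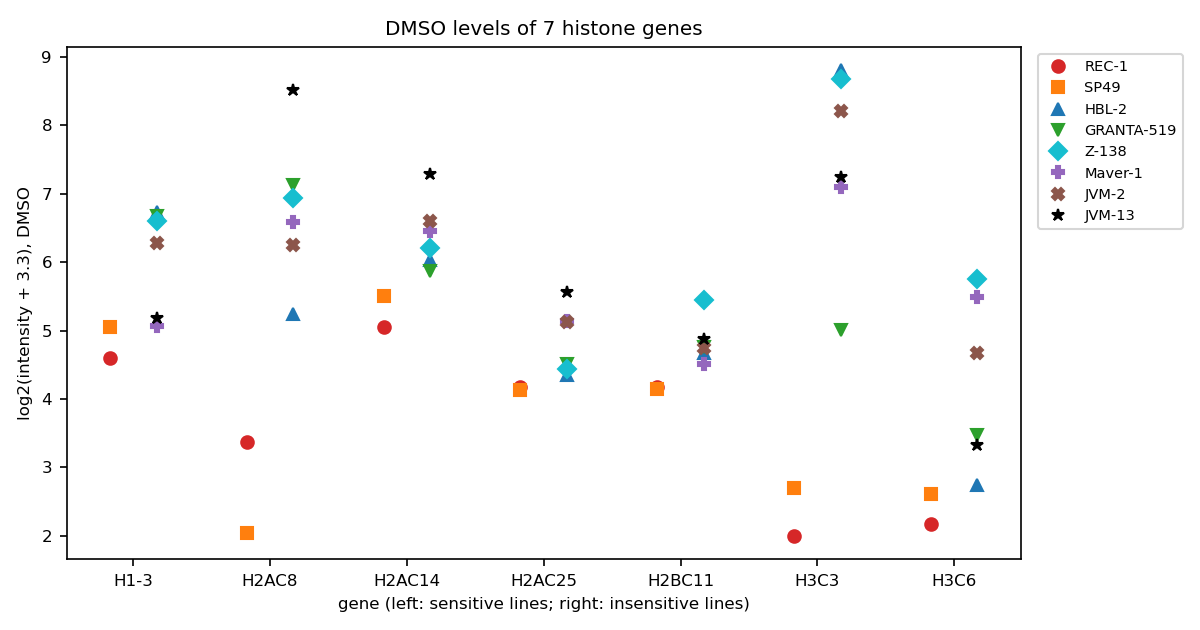
DMSO level, as log2(intensity + 3.3), of the 7 histone genes for which both sensitive lines (left of each gene) lay below all 6 insensitive lines (right). The gap was widest for H2AC8 and H3C3, where REC-1 and SP49 were at 7.0 or less.

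Genes that make, process and use histone RNA were measured on the same arrays. None of the 18 tested genes of 3' end processing and decay passed the threshold. Nor did any of 12 histone transcription genes, 17 chaperone genes or 9 histone variant genes. None of all these had an unadjusted p under 0.05 in limma. SLBP, which binds the stem-loop, differed by -0.15 ± 0.12 (SE), lower in 6 of 8 lines. ERI1, a nuclease that trims and degrades histone messages, differed by -0.23 ± 0.12 and was lower in all 8 lines, as were 0.414% of all genes. NPAT, the coactivator that turns histone genes on in S phase, differed by 0.03 ± 0.15, and HINFP, an activator of H4 genes, by 0.37 ± 0.20 (higher in 7 of 8). The B-cell factors that bind the octamer or its factors, POU2F2 and POU2AF1, differed by 0.30 ± 0.23 and 0.13 ± 0.07. Cyclin E genes CCNE1 and CCNE2, which drive entry into S phase, each differed by -0.22, with SE of 0.18 and 0.26. The JVM-13 pair moved several of these means. Without it, POU2F2 was at 0.06, HINFP at 0.18, NPAT at -0.08, SLBP at -0.25, CCNE1 at -0.35 and CCNE2 at -0.48.

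Histone variant genes outside the 49 gave a further comparison. H2AZ1 differed by -0.02 ± 0.06, H2AX by 0.06 ± 0.16 (-0.06 without JVM-13), H3-3A by -0.17 ± 0.11 and MACROH2A1 by 0.05 ± 0.06. The median of the 9 was -0.02. Of 9 tested genes of cell cycle exit only CDKN1C had an unadjusted p under 0.05. CDKN1C, an inhibitor of cyclin-dependent kinases, differed by 0.96 ± 0.23 (limma, unadjusted p = 0.00132, adjusted p = 0.464) and was higher in 7 of 8 lines. CDKN1A and CDKN1B, of the same family, differed by -0.06 ± 0.14 and 0.13 ± 0.12.

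The last description concerns gene length, a split made after the values were seen. RefSeq gives a span over 1000 bases to 6 of the tested genes, H1-10, H2BC4, H2BC5, H2BC12, H2BC21 and H3C6, with spans of 1516 to 13229 bases, and 389 to 776 bases to the other 15. A longer span means that at least 1 listed transcript reaches past the short stem-loop message, except that H1-10 is a longer gene of its own. Of the 6, 5 had a mean difference above 0 and the median was 0.18. Of the 15, 4 were above 0 and the median was -0.17, and H2AC6, at 0.57, was one of them. Over all genes tested 62.9% were above 0, with a median of 0.06. Among the 5, the sign of H1-10 (0.05) turned under 5 of 18 alternatives. A second probe set of H2BC5 (0.10) was lower with AFN700 in most lines. No test was made of this split.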

How the data were processed

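The authors deposited linear intensities per probe set, made with MAS5 per the submitters' processing notes. The MAS5 version is not given in the sources used here. Each deposited array has a trimmed mean of 150. Of 54675 probe sets, 41097 are listed with 1 gene, 1801 with several and 11777 not at all. Detection calls were not used. The log2 values were computed here with a pseudocount of 3.3, the 25th percentile of all values, from the deposited intensities. The deposited scaling was kept.

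Differences were tested with limma 3.58.1 (R 4.3.3; lmFit, eBayes with a trend) with the cell line as a block, since both arrays of a line carry its name in the labels. The sensitive and insensitive responses came from 1 fit of all 16 arrays, and the DMSO comparison from 8 arrays. Adjusted p-values are Benjamini-Hochberg over 12305 genes. P-values measure the spread between lines, each with 1 array per treatment, and that number limits precision. Means are given with their moderated SE. The fits were tested on simulated arrays.

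The genes described, the gene lists and the tests were chosen with earlier results of these data known. Genes named in full were the 2 of highest mean signal per family, the 6 of smallest p, any past a threshold, any of 1 sign in 8 lines, the 3 of largest DMSO spread and H1-10. Others were added after their values were seen: H2AC14, H2AC25, H2BC4, H2BC5, H2BC6, H2BC9, H2BC11 and H1-3. Alternatives were other pseudocounts, scalings, filters, probe set rules, a fit with no trend, a threshold of 0.10, leaving out lines and dropping the block. Counts of genes of 1 sign or order without JVM-13 or with no filter, and means of the other lists without JVM-13, were chosen after seeing the data. Figures used matplotlib 3.10.9.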

Additional observations from a re-analysis of the deposited data

Results flagged for a closer look

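For 42 sets of 8 lines, a line was singled out when its gap to the nearest other line, divided by the whole range, exceeded 0.526. Chance singles out about 1 in 20 such sets. Here 8 were, and 5 of them concern JVM-13 histone values, none of which was tested further. H2BC21 differed by -2.1 in JVM-13, while the other lines lay between 0.38 and 1.07. Its DMSO log2 level there was 11.02, with the others at 5.91 to 7.96. The DMSO log2 level in JVM-13 was 11.37 for H1-2 (others 7.94 to 9.52), 11.54 for H2BC12 (others 9.57 to 10.45) and 10.24 for H2BC12L (others 8.36 to 9.08). On the same pair of arrays the median difference of the DNA replication list was 1.04, with the others at -0.88 to 0.02. REC-1 was singled out for H1-2, whose difference was 0.89 while the others lay between -0.76 and 0.01, and for H2AC17, whose DMSO log2 level was 2.68 with the others at 5.08 to 6.64. No response differed between sensitive and insensitive lines past the threshold, or with opposite signs in every line of each, among the 13 genes named in full.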

How the results depend on the processing

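The number of histone genes past the threshold was 0 in each of the 3 comparisons and under every alternative run except 1: without JVM-13 and HBL-2, 2 genes, H2AC6 and H2BC21, passed for AFN700 minus DMSO over the remaining 6 lines. Both genes are read by probe sets that can match other genes. The median difference of the histone genes ran from -0.13 to 0.08 for AFN700 minus DMSO, from 0.30 to 0.76 for the difference in response and from -1.0 to -0.45 for the DMSO comparison. Leaving out 1 line at a time gave -0.12 to 0.08, 0.32 to 0.76 and -1.0 to -0.45. No replicate block, that is, leaving the cell line out of the model, gave 0 histone genes for both AFN700 comparisons, with 57 genes at an unadjusted p under 0.05 over 8 lines, against 1006 with the block. In the DMSO comparison 1 of 12305 genes passed with all lines and 0 to 46 under the alternatives, 46 being without SP49, with no histone gene among them. Without JVM-13, 10 genes passed for AFN700 minus DMSO over the remaining 7 lines, and the histone genes higher in all lines were 3 and lower in all lines 1 (H2AC4), against 1 and 0 with all 8. With no filter, both sensitive lines lay below all insensitive lines for 5 histone genes with AFN700, against 2 with it. Intensities below the filter value (H3C3 and H2AC8 under DMSO in the sensitive lines, H3C6 in REC-1, SP49 and HBL-2) give imprecise differences, and 2 sensitive lines limit every comparison with the insensitive ones.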

Other observations

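Probe sets shared by several histone genes were left out of the comparisons, and their values can only be given for the group. One that matches 14 H4 genes was lower with AFN700 in all 8 lines, with 102.5, 139.3 and 163.7 (lowest, median, highest) with AFN700, against 110.6, 161.8 and 233.8 with DMSO, and a mean log2 difference of -0.27. A second for the same 14 genes was lower in 7 of 8 lines, with a mean of -0.44. Of all genes tested, 0.414% were lower in all 8 lines and 4.11% in 7 or 8. The remaining ones for these 14 genes read 16.3 or less, with means of -0.24, -0.20 and -0.05. One that matches 10 H3 genes was near 0 in both sensitive lines. REC-1 was at 3.2 and SP49 at 3.6 with AFN700, and at 3.3 and 1.6 with DMSO. The insensitive lines read 55.2 to 111.5 with AFN700 and 40.1 to 134.1 with DMSO. A second for the same 10 genes did not show that gap. It read 0.4 to 7.6 with AFN700 and 0.3 to 8.2 with DMSO over all 8 lines. The 3 that match H2AC18 and H2AC19 read 184.1, 352.1 and 212.6 with AFN700 and 1485.2, 1469.9 and 1252.3 with DMSO in JVM-13, and on the DMSO arrays of the other 7 lines 285.5 was their highest value. One that matches 6 H2A genes had a mean of 0.20, higher in 6 of 8 lines, with SP49 at 1.0 and JVM-13 at -1.42. A second for the same 6 genes went the other way, with a mean of -0.25, lower in 5 of 8 lines. There SP49 was at -0.34 and JVM-13 at -1.17.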
